A study of Mus musculus with 49 samples.

Results

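Cells of the synovial fluid of arthritic ankles were compared between day 18 and day 3 after the first injection of K/BxN serum. The comparison used 6 of the 49 arrays of the study, 3 for each day, taken by the tissue and the day that their labels give. The recipients were male mice of the B6 background, 6 weeks old by the labels, and all of them had received serum. The study also profiled whole ankle and blood leukocytes, and fluid cells at days 7 and 12, on Affymetrix mouse expression arrays. The title of the series concerns CXCR2, but the labels name no altered gene in any group used here, and fluid from a joint without serum was not analysed here.

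The fluid cells were whole, unsorted cells. Replicates 2 and 3 of day 3 and replicates 1 and 2 of day 18 were collected while the ankles were dissected. Day 3 replicate 1 was washed out of dissected ankles. Day 18 replicate 3 carries another description, with the separation given as whole organ or culture and with 2 rounds of in vitro transcription. Fluid day 7 replicates 1 and 4 and blood day 3 replicate 3 were also handled as arrays of another preparation. These day 7 arrays enter the spread estimated over the 13 fluid arrays. Below, the 2 arrays of another preparation are fluid day 3 replicate 1 and fluid day 18 replicate 3. The labels do not say whether replicates came from separate mice or from pools, and the p-values therefore reflect only how far these particular samples spread, part of which may be technical.

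K/BxN serum carries autoantibodies against glucose-6-phosphate isomerase, and its transfer into a healthy mouse causes joint inflammation driven by immune complexes, complement and neutrophils. Neutrophils are the main cells of inflamed joint fluid, and monocytes and macrophages accompany them. Fibroblasts of the synovial lining make the collagens and small proteoglycans of the joint matrix and secrete matrix metalloproteinases when stimulated. Because the RNA came from bulk samples, fewer cells of a type and less RNA per cell cannot be told apart.

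The labelled tissue was checked against cell type markers. The summed intensity of 20 markers of mature neutrophils was 18480 to 24120 on the day 3 arrays and 23847 to 27432 on the day 18 arrays, against 5767 to 6944 in whole ankle at day 3. The sum of 18 monocyte and macrophage markers was 25839 to 40702 at day 3 and 27671 to 37415 at day 18. Both sums overlapped between the days. Lymphocyte markers were low, since the sum of 17 T cell markers was 1296 to 1570 over the 6 arrays against 3686 to 5373 in blood at day 3. The 14 cartilage and 19 skeletal muscle markers, which could mark cartilage or muscle carried over in dissection, summed to 1063 to 1326 and 1636 to 2170 over the same arrays. In limma 0 genes of either list passed the test between the days (0 and 3 at an unadjusted p under 0.05). Neither list covers the synovial lining, so they cannot speak for lining carried over, which was not tested. Of 15 endothelial genes, 0 passed in limma and 6 had an unadjusted p under 0.05. The sum of 23 synovial fibroblast and matrix genes was 4324 to 6987 at day 3 and 22832 to 26304 at day 18, without overlap. The sums of 4 other lists did not overlap either. At day 18 the bone and osteoclast sum (2884 to 3330, from 1018 to 1381) was higher, with Ctsk called, as were the adipocyte sum (1451 to 1654, from 851 to 943), with Scd1 higher and Pparg lower, and the liver sum (6123 to 6896, from 1690 to 2304), with Hp called. The dendritic cell sum was lower (2507 to 3433, from 3511 to 4040). Such sums are set mostly by their brightest members. The median log2 difference was 0.08 for the bone and osteoclast list, -0.04 for the adipocyte list and 0.02 for the liver list. For the dendritic cell list it was -0.35. The part of these lists in the other differences below was not tested.

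Of 8251 genes, 188 rose and 75 fell between day 3 and day 18 at a Benjamini-Hochberg adjusted p under 0.05 in limma. These are 2.28% and 0.909% of the genes tested, 3.19% in all, and 1247 genes had an unadjusted p under 0.05. The counts of list members below are to be read beside these shares. The median difference over all genes was -0.01 on the log2 scale. Of the 263 called genes, 90 had both day means under the 95th percentile of 34 negative control probe sets, a log2 intensity of 6.85, and 100 had both above it. Where a day mean lies under that level, the log2 difference is at best a lower bound, and no fold is given for it.

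**Figure D1:**
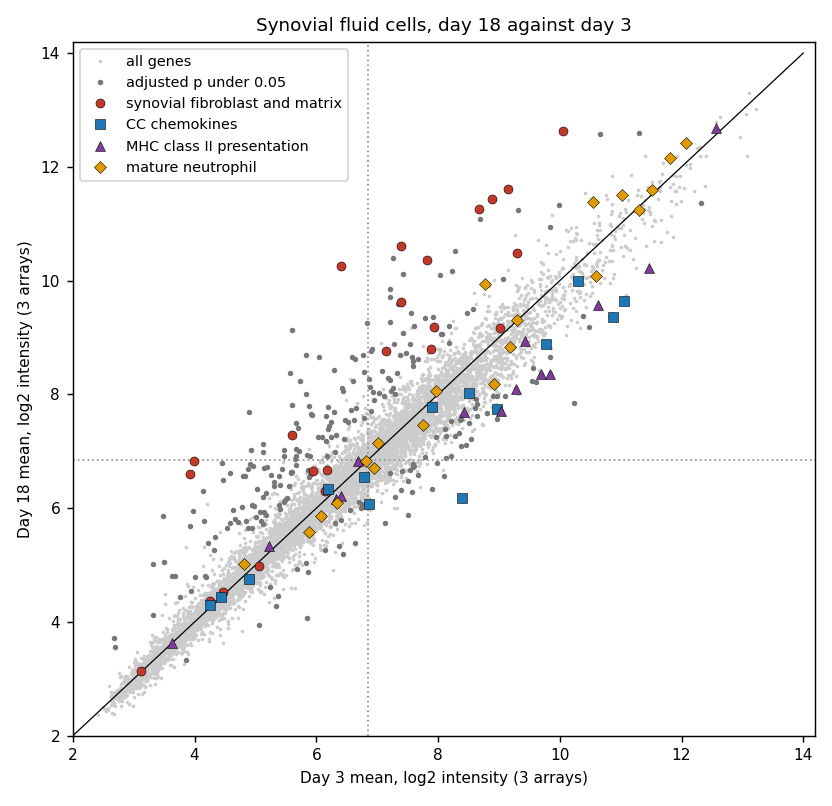
Mean log2 intensity of each of 8251 genes in synovial fluid cells at day 3 (horizontal axis, 3 arrays) and at day 18 (vertical axis, 3 arrays), with 4 gene lists in colour, called genes in dark grey and the negative control level of 6.85 dotted. Most fibroblast and matrix genes lie above the diagonal of equal values, most MHC class II and CC chemokine genes lie below it, and neutrophil genes lie along it.

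The rises depended less on single arrays than the falls. Of the 188 genes that rose, 115 were called with each of the 6 arrays left out in turn, and of the 75 that fell, 11 were. Leaving out 1 array gave from 120 to 167 rises and from 16 to 55 falls, with the fewest of both without day 18 replicate 1. With the dissected arrays alone, 149 genes rose and 54 fell, of which 132 and 33 were among those called with all arrays. The day 3 and day 18 contrast does not exist within the washed arrays or within those amplified for 2 rounds. A measure of RNA integrity, the signal of the beta-actin 3′ probe set over its 5′ probe set on the log2 scale, was 1.59 to 2.39 at day 3 and 2.02 to 3.61 at day 18, highest in day 18 replicate 1. With this ratio as a covariate, 143 genes rose and 21 fell.

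The rise in fluid cells was led by genes of the fibroblast matrix. Of the 23 measured synovial fibroblast and matrix genes, 13 rose and 0 fell, and their median difference was 1.62 on the log2 scale. With single arrays left out, 11 or 12 of them rose. Lumican, encoded by Lum, is a small proteoglycan that binds collagen fibrils. Its log2 intensity was 6.12, 6.16 and 6.95 in the day 3 replicates and 10.25, 10.33 and 10.21 in the day 18 replicates. All 3 day 18 arrays were far above the highest day 3 array, and the difference of 3.85 ± 0.38 (SE) had an adjusted p of 2.87e-05. The day 3 mean of 6.41 was under the negative control level.

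Fibrillar collagens and their partners rose from levels that were already measurable at day 3. Col5a2, a chain of the type V collagen that starts fibrils, was at 7.34, 7.38 and 7.45 at day 3 and at 10.81, 10.51 and 10.51 at day 18. The arrays of each day lay close together and the days did not overlap, with a 9.30-fold higher level at day 18 (log2 difference 3.22 ± 0.21, adjusted p = 1.51e-06). Col1a2, a chain of type I collagen, was at 8.41, 8.40 and 9.21 at day 3 and at 11.27, 11.43 and 11.06 at day 18. It was 5.98-fold higher at day 18 with no overlap, while its other probe set, which read close to 7.62 at day 3, differed by 0.27. Col3a1, of type III collagen, rose by 2.47 ± 0.31, Col6a1 by 1.62 and Col5a1 by 1.25. The call of Col5a1 was kept without day 3 replicate 1 and lost without each of the other 5 arrays, at adjusted p-values of 0.0584 to 0.132. The type I chain Col1a1 was at 9.29 and 10.48 on average and missed the threshold (adjusted p = 0.0916).

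Decorin, the most abundant of the small proteoglycans in connective tissue, was the brightest list member. Dcn was at 9.34, 9.93 and 10.88 at day 3 and at 12.93, 12.60 and 12.35 at day 18. Its day 3 arrays were spread over more than 1 log2 unit but stayed under every day 18 array, and the difference was 5.95-fold (2.57 ± 0.44, adjusted p = 0.00302). Biglycan, Bgn, rose 5.82-fold, and Sparc, which encodes a collagen-binding matrix protein, rose 5.79-fold. Sparc also varied most at day 3, from 6.41 in replicate 1 to 8.84 in replicate 3. The 3 day 18 arrays of Sparc lay between 10.26 and 10.51.

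Surface markers of fibroblasts could be read only in part. Pdgfra, the receptor for platelet-derived growth factor on mesenchymal cells, was at 7.58, 7.08 and 7.49 at day 3 and at 9.98, 9.32 and 9.59 at day 18, a 4.74-fold rise without overlap. Fap, a surface protease of activated fibroblasts, rose by 2.84 ± 0.27 and Postn, a secreted matrix protein, by 2.68 ± 0.25. Their day 18 means of 6.82 and 6.60 remained under the negative control level. Vcam1, an adhesion molecule of activated synovial and endothelial cells, rose by 1.69. Its adjusted p became 0.0773 on leaving out day 3 replicate 1 and 0.058 for day 3 replicate 3. For day 18 it became 0.0725 on leaving out replicate 1 and 0.0933 for replicate 3. Thy1, Pdgfrb, Pdpn and Cdh11 differed by 0.16, 0.12, -0.08 and 0.02. All 4 were under the negative control level on both days and none was called. At such levels a change can be missed, so these values do not show that the genes were unchanged. Fn1, which encodes fibronectin, was at 9.02 and 9.17.

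**Figure D2:**
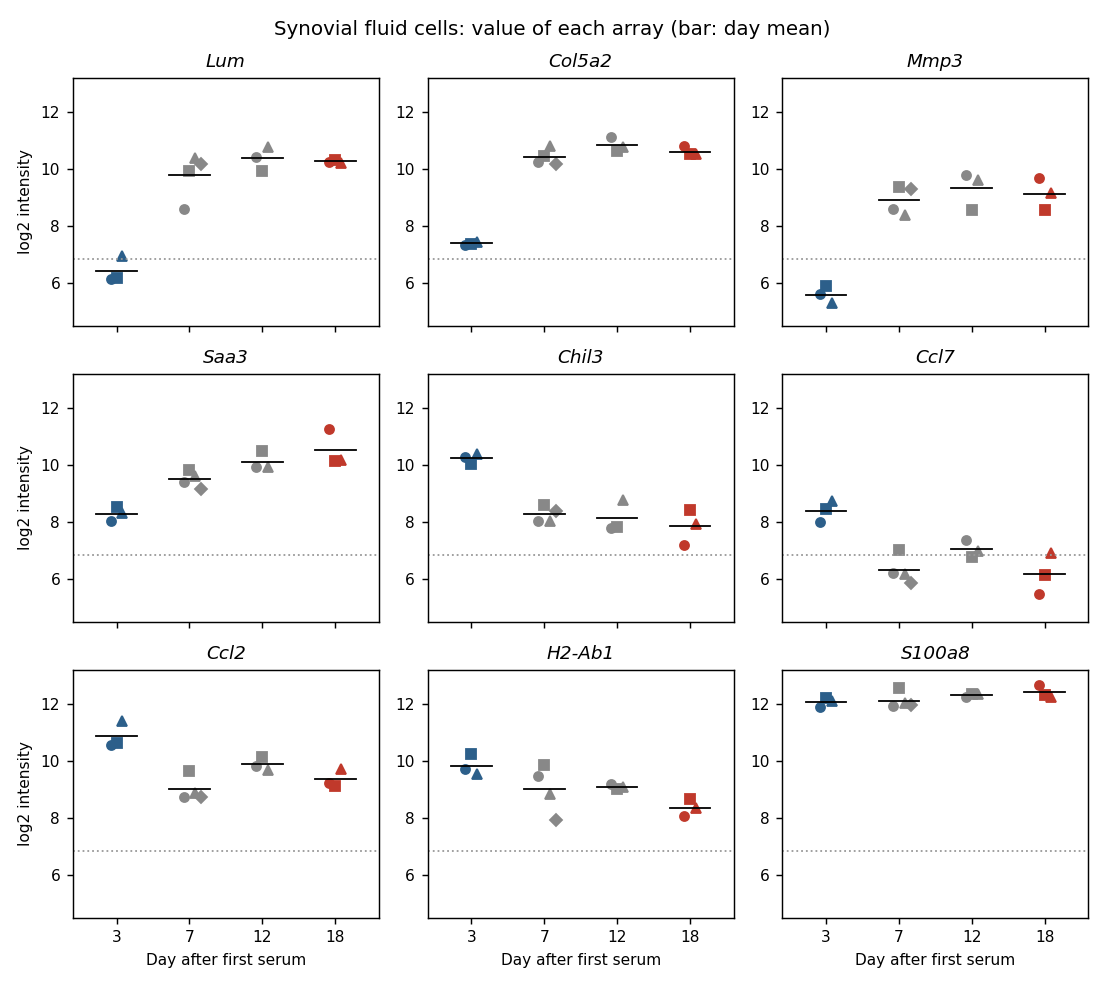
Log2 intensity of 9 genes on each of the 13 synovial fluid arrays, by day after the first serum injection. Circles, squares, triangles and diamonds are replicates 1 to 4, bars are day means, and the dotted line is the negative control level of 6.85. The day 18 arrays (red) lie above all day 3 arrays (blue) for Lum, Col5a2, Mmp3, Saa3 and S100a8, and below them for Chil3, Ccl7, Ccl2 and H2-Ab1. The S100a8 difference of 0.34 did not pass the test.

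The other genes with the largest rises by the naming rule had these values. Gas1, a surface protein bound to growth arrest and hedgehog signalling, was at 7.08, 7.06 and 7.64 at day 3 and at 10.64, 10.09 and 10.48 at day 18. It was 8.82-fold higher at day 18 and the days did not overlap. Htra1, a secreted serine protease, was 6.43-fold higher, and Fstl1, a secreted glycoprotein of mesenchymal cells, was 6.23-fold higher. Lox, the enzyme that crosslinks collagen, rose by 2.79 ± 0.30 from a day 3 mean of 4.89. Its other probe set, under the negative control level on both days at 5.25 and 6.09, differed by 0.84. Lamb1, a laminin chain of basement membranes, rose by 2.81, Ccn5, a secreted matricellular protein, by 2.61, and Ppic, a cyclophilin, by 2.88. All 12 of the genes with the largest rises by the naming rule were called in each of the 22 alternative settings.

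Matrix-degrading enzymes moved unevenly. Of 16 measured matrix proteases and inhibitors, 3 rose and 0 fell, and the median difference was 0.16. Mmp3, encoding stromelysin, which cleaves proteoglycans and activates other metalloproteinases, had the second largest rise of all named genes. It was at 5.61, 5.90 and 5.29 at day 3, under the negative control level, and at 9.70, 8.55 and 9.16 at day 18. The days did not overlap and the difference was 3.54 ± 0.36 (adjusted p = 3.15e-05). Timp3, a matrix-bound inhibitor of metalloproteinases, rose by 1.84 ± 0.27. Mmp2, a gelatinase, rose by 1.25 ± 0.15 between day means that were both under the negative control level. Its other probe set, also under that level at 4.51 and 4.48, differed by -0.03.

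Mmp9, the gelatinase stored in neutrophil granules, was at 8.92, 8.63 and 8.77 at day 3 and at 9.71, 9.82 and 10.30 at day 18. Its days did not overlap, but the difference of 1.17 ± 0.32 missed the threshold (adjusted p = 0.0594). Groups without overlap were common, at 11.9% of genes for higher and 13.1% for lower values at day 18. Mmp13, a collagenase, was at 4.21 and 6.08 on average (adjusted p = 0.075), and the neutrophil collagenase Mmp8 was at 7.01 and 7.15. Timp1, an inhibitor that is abundant in inflamed tissue, was at 11.70 and 12.06.

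The promoters of risen genes were searched for TGANTCA, which allows any middle base in the recognition motif of AP-1. This factor is known for driving metalloproteinase genes in stimulated fibroblasts. The motif and the genes shown were chosen after their values had been seen. The motif reads the same on both strands apart from its middle base, so 1 search covers both. It was present in the 250 bases before the gene start in 14 of the 133 risen genes that matched the promoter table (10.5%), in 5 of 59 fallen genes (8.47%) and in 6.71% of the 6576 measured genes that matched. Over all 27025 genes of the table the share was 7.82%. A match describes these letters and is neither a bound site nor a cause. Of the matching genes, Mmp3 is shown as the metalloproteinase with the largest rise. Gja1 is shown as a gap junction gene, encoding a connexin of fibroblasts, that was bright on both days. Both sequences are from RefSeq, build GRCm38.p6, 5′ to 3′ on the plus strand, and capitals mark the motif, which starts 46 and 19 bases before the gene start.
Mmp3, chr9:7445572-7445821: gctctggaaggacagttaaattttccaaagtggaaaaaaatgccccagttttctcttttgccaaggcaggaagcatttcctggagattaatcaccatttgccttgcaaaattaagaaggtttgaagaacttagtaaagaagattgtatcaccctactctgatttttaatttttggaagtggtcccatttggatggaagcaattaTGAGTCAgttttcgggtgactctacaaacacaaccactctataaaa
Gja1, chr10:56377050-56377299: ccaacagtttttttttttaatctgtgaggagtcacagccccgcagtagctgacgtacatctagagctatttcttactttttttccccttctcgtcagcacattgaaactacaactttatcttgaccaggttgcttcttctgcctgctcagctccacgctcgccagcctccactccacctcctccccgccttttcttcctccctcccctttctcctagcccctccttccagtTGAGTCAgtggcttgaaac
Gja1 was at 8.53, 8.55 and 9.0 at day 3 and at 11.47, 10.90 and 10.86 at day 18. It was 5.22-fold higher at day 18 with no overlap (2.39 ± 0.28, adjusted p = 0.00012).

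The acute phase genes included 3 that rose. Of 13 measured acute phase and S100 genes 0 fell, with a median difference of 0.34. Saa3, a serum amyloid A made outside the liver by macrophages and stromal cells, was at 8.02, 8.51 and 8.32 at day 3 and at 11.27, 10.14 and 10.18 at day 18. Replicate 1 was highest at day 18, the days did not overlap, and the level was 4.75-fold higher (2.25 ± 0.30, adjusted p = 0.000308). Hp, encoding haptoglobin, which binds free haemoglobin, was at 10.70, 10.90 and 10.38 and then at 12.49, 12.56 and 12.66, a 3.76-fold rise. Cp, encoding the copper oxidase ceruloplasmin, rose by 2.22 ± 0.34 from a mean of 5.59. All 3 were called with any single array left out. The fibroblast sum was higher with them, and its part in these rises was not tested. Lcn2, the siderophore-binding protein lipocalin 2, was at 6.24 and 6.83 (adjusted p = 0.082).

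**Figure D3:**
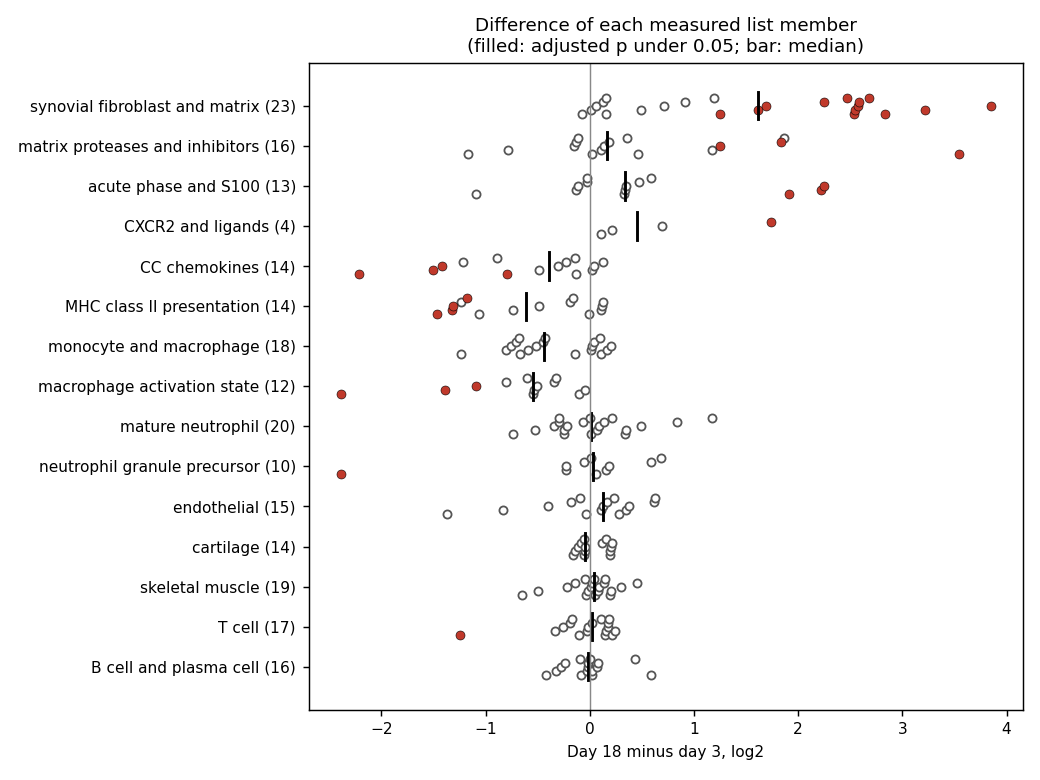
Log2 difference, day 18 minus day 3, of each measured member of 15 gene lists in synovial fluid cells. Filled points passed the test, open points did not, black bars are list medians, and the number of measured genes is in brackets. The fibroblast list has its median at 1.62, while the mature neutrophil list has its median at 0.01 with no filled point.

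Chemokines of the CC family were among the genes that fell. These are secreted ligands that attract monocytes and other leukocytes through CC receptors. Of 14 measured members, 4 fell and 0 rose, and the median difference was -0.39. Ccl2, the main ligand of the monocyte receptor CCR2, was at 10.56, 10.64 and 11.40 at day 3 and at 9.24, 9.13 and 9.71 at day 18. Each day 18 array was under each day 3 array, and the level was 2.84-fold lower at day 18 (-1.51 ± 0.29, adjusted p = 0.00683). Ccl7, another CCR2 ligand, was at 7.99, 8.45 and 8.74 at day 3 and at 5.49, 6.13 and 6.93 at day 18. It fell by 2.21 ± 0.34, and the day 18 mean of 6.18 was under the negative control level.

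Ccl9, a myeloid chemokine that binds CCR1, was at 10.74, 11.16 and 11.27 at day 3 and at 8.75, 9.99 and 10.17 at day 18. It was 2.67-fold lower (adjusted p = 0.0335), with day 18 replicate 1 the lowest. Its adjusted p was 0.127 without day 3 replicate 2, 0.105 without day 3 replicate 3 and 0.172 without day 18 replicate 1. Ccl17, a ligand of CCR4, fell by 0.79 ± 0.17, and its call was kept without day 3 replicate 2 and lost without each of the other 5 arrays, at adjusted p-values of 0.0515 to 0.0973.

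The receptor CXCR2 guides neutrophils toward CXC ligands. Cxcr2 was at 4.44, 4.93 and 5.06 at day 3 and at 4.76, 5.16 and 5.17 at day 18. All 6 values were under the negative control level and the days overlapped, so no level of the receptor could be read. Cxcl1 was at 7.33, 7.31 and 7.83 at day 3 and at 8.41, 7.51 and 8.64 at day 18 (adjusted p = 0.461). Cxcl2 was at 9.30, 9.67 and 10.61 and at 9.95, 9.87 and 10.10, and the days overlapped for both ligands.

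Cxcl5, a CXCR2 ligand of stromal and epithelial cells, was at 4.78, 4.85 and 4.88 at day 3 and at 6.41, 6.10 and 7.22 at day 18. The days did not overlap, and the difference of 1.74 ± 0.45 was just past the threshold (adjusted p = 0.0486). Leaving out any of the 6 arrays ended this call, with adjusted p-values from 0.0605 to 0.202. At days 7 and 12 the mean of Cxcl5 was 7.25 and 7.68, and that of Cxcl1 was 9.01 and 9.23, which are higher than at either of the compared days.

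Among 18 measured chemokine receptors, 1 rose and 0 fell, beside 2.28% and 0.909% over all genes. Ackr3, an atypical receptor that takes up CXCL12, was at 7.04, 6.75 and 8.23 at day 3 and at 10.13, 9.06 and 9.58 at day 18. It was 4.75-fold higher with no overlap (2.25 ± 0.40, adjusted p = 0.00433). With the dissected arrays alone the adjusted p was 0.0641. The monocyte receptor Ccr2 was at 8.09 and 7.43 (adjusted p = 0.432), and Ccr1, found on neutrophils and monocytes, was at 8.93 and 8.19 (adjusted p = 0.628).

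Genes of antigen presentation by MHC class II were also among those that fell. Class II molecules show peptides to CD4 T cells and are carried by macrophages, dendritic cells and B cells. Of 14 measured genes, 4 fell and 0 rose, with a median difference of -0.61. H2-Ab1, the beta chain of the I-A molecule, was at 9.71, 10.25 and 9.54 at day 3 and at 8.07, 8.67 and 8.34 at day 18. The days did not overlap and the level was 2.77-fold lower (-1.47 ± 0.37, adjusted p = 0.0416). Its partner chain H2-Aa was at 11.46 and 10.23 (adjusted p = 0.0966), and H2-Eb1 was at 10.63 and 9.57 (adjusted p = 0.0512).

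Cd74, the invariant chain that escorts class II molecules, was at 8.76, 9.66 and 8.67 at day 3 and at 7.57, 7.87 and 7.71 at day 18. It was 2.48-fold lower without overlap (-1.31 ± 0.26, adjusted p = 0.01). H2-DMa, which loads peptides, was 2.26-fold lower, while its other probe set differed by -0.29, and Ifi30, a lysosomal thiol reductase, was 2.50-fold lower. Ctss, the protease that trims the invariant chain, was at 12.56 and 12.67, and Ciita, the master regulator of the class II genes, was at 6.32 and 6.17, under the negative control level.

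These class II calls depended on which arrays were used. With 1 array left out, between 0 and 3 of the 14 genes fell, and 0 fell without day 3 replicate 2, without day 18 replicate 1 or with the dissected arrays alone. The difference of H2-Ab1 was -1.62 to -1.26 over the fits with an array left out and -1.52 with the dissected arrays. The adjusted p of H2-Ab1 was 0.058 to 0.194 over those 6 fits. Cd74 and H2-DMa lost their calls without day 3 replicate 2 (adjusted p = 0.0513 and 0.0767) or day 18 replicate 1 (0.0621 and 0.0811). Ifi30 was called only without day 3 replicate 3, and its adjusted p was 0.0702 to 0.196 without each other array.

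Markers of monocytes and macrophages as a whole did not pass the test. Of 18 measured genes, 0 rose and 0 fell in limma, 3 had an unadjusted p under 0.05, and the median difference was -0.44, with 11 members below 0. Csf1r, the receptor for the macrophage growth factor, was at 10.36, 10.76 and 10.48 at day 3 and at 9.99, 9.80 and 9.55 at day 18 (adjusted p = 0.138). The days did not overlap, but the difference of -0.75 ± 0.25 missed the threshold. Fcgr1, the high-affinity IgG receptor, was at 9.67 and 8.43 (adjusted p = 0.119), and its other probe set, as bright, was at 9.91 and 8.13, a difference of -1.78. Apoe, C1qa and C1qb, abundant in tissue macrophages, differed by 0.20, 0.16 and 0.10.

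Of 12 measured genes tied to the activation state of macrophages, 3 fell and 0 rose, all 12 had a difference below 0, and the median was -0.54. Chil3, a chitinase-like protein of alternatively activated macrophages and of maturing neutrophils, showed the largest fall by the naming rule. It was at 10.27, 10.04 and 10.38 at day 3 and at 7.19, 8.41 and 7.93 at day 18. The day 3 arrays lay within a narrow range, the day 18 arrays were all well under them, and the level was 5.23-fold lower (-2.39 ± 0.31, adjusted p = 0.000281).

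Cd86, the costimulatory ligand of CD28, was at 7.48, 7.08 and 6.85 at day 3 and at 5.55, 5.83 and 5.84 at day 18. It fell by 1.39 ± 0.20 without overlap, to a mean under the negative control level. Its other probe set, under that level on both days at 4.17 and 4.06, differed by -0.11. Pparg, a nuclear receptor, fell by 1.1 ± 0.21 between day means that were both under that level (adjusted p = 0.0508 without day 3 replicate 2). Arg1, encoding arginase, was at 11.67 and 11.06 (adjusted p = 0.616), and Tnf was at 7.31 and 6.77 (adjusted p = 0.304). Of 14 dendritic cell genes, Irf4 and Ccl17 fell and 0 rose, with a median of -0.35, and without the 2 arrays of another preparation neither was called (adjusted p = 0.122 and 0.184).

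Neutrophil genes did not pass the test in either direction. Of 20 measured genes of mature neutrophils, 0 rose and 0 fell in limma, 2 had an unadjusted p under 0.05, and the median difference was 0.01. Of the 22 alternatives, 10 called members of this list. Quantile normalization anew, the mean of probe sets, all 49 arrays and the replicate block each called 2 of the 20 as higher, and array weights called 2 higher and 1 lower. With genes near background left out 2 of the 15 tested were called higher, and 4 further settings called 1. S100a8, a calcium-binding protein that fills the neutrophil cytosol, was at 11.91, 12.19 and 12.11 at day 3 and at 12.67, 12.31 and 12.26 at day 18. The days did not overlap, yet the difference was 0.34 ± 0.23 (adjusted p = 0.563). Csf3r, the receptor for the neutrophil growth factor, was at 9.30, 9.71 and 8.87 and at 8.88, 9.54 and 9.48, and the days overlapped. Of 10 genes of granule precursors, Chil3 fell and 0 rose, and the neutrophil elastase gene Elane was at 6.38 and 6.15, under the negative control level.

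Sphk1, another of the falls by the naming rule, makes the lipid mediator sphingosine 1-phosphate. It was at 7.95, 7.56 and 8.19 at day 3 and at 6.15, 6.32 and 6.54 at day 18. It fell by 1.56 ± 0.22 with no overlap (adjusted p = 0.000644). Ltb4r1, the receptor for leukotriene B4 that draws neutrophils into joints, was at 9.42, 9.02 and 8.46 at day 3 and at 7.29, 7.57 and 7.85 at day 18. It was 2.63-fold lower without overlap (adjusted p = 0.0214), and its adjusted p was 0.0912 without day 3 replicate 1, 0.083 without day 3 replicate 2, 0.126 without day 18 replicate 1 and 0.0686 without day 18 replicate 2. In the list of 18 leukotriene and prostaglandin genes it was the 1 member that fell, and Ptger3, a prostaglandin receptor, rose by 0.86 far under the negative control level.

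Il4ra, the receptor chain for interleukins 4 and 13, was at 9.63, 9.90 and 9.30 at day 3 and at 7.99, 7.98 and 8.67 at day 18. It was 2.64-fold lower without overlap (adjusted p = 0.0335), and its other probe set, near 5.50, differed by 0.08. Stxbp2, needed for granule release, was 2.53-fold lower (adjusted p = 0.0306). Its other probe set, under the negative control level on both days at 6.45 and 6.49, differed by 0.04. For Il4ra and Stxbp2 the adjusted p rose to 0.0844 and 0.0974 when day 3 replicate 1 was left out, to 0.157 and 0.121 for day 3 replicate 2, to 0.167 and 0.176 for day 18 replicate 1 and to 0.126 and 0.0822 for day 18 replicate 2. Gab1, a docking protein of growth factor receptors, fell by 1.53 ± 0.25 (adjusted p = 0.00195), to a mean of 6.57. Its other probe set, under the negative control level on both days at 4.66 and 4.55, differed by -0.11. Gab1, Sphk1, Chil3, Ccl2, Ccl7 and Cd86 were the falls of the naming rule called in all 22 alternatives.

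Of 16 measured complement genes, 2 rose and 1 fell, beside 2.28% and 0.909% over all genes. Cfp, encoding properdin, which stabilizes the alternative pathway convertase and is released by neutrophils and monocytes, was at 7.69, 7.22 and 7.61 at day 3 and at 5.53, 5.83 and 6.26 at day 18. It fell by 1.63 ± 0.37 (adjusted p = 0.021) to a mean under the negative control level, a call that 4 single arrays could end. The adjusted p became 0.0721 and 0.0634 on leaving out replicate 1 and 3 of day 3, and 0.126 and 0.0703 on leaving out replicate 1 and 2 of day 18. Serping1, the inhibitor of C1 esterase, was at 8.14, 7.74 and 7.87 at day 3 and at 9.36, 9.25 and 9.48 at day 18. This inhibitor was 2.72-fold higher with no overlap (1.45 ± 0.25, adjusted p = 0.00374). Cd55, a surface regulator that breaks up convertases, rose by 1.17 ± 0.27 between means under the negative control level. Its call was kept without day 3 replicate 1 or day 18 replicate 3, and the adjusted p was 0.0653 to 0.169 without each other array.

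The 6 measured genes of the phagocyte oxidase, which makes superoxide, all had differences below 0, with 1 called. Cyba, its membrane subunit, was at 12.27, 12.25 and 12.46 at day 3 and at 11.21, 11.52 and 11.38 at day 18, 1.94-fold lower (adjusted p = 0.0436). The days did not overlap, and 0 of the 6 fits with an array left out called it (adjusted p = 0.0832 to 0.186). Of 20 glycolysis and hypoxia genes, 18 had a difference below 0 and the median was -0.62, but only Pfkfb3, a regulator of glycolysis, was called (-0.68 ± 0.17, adjusted p = 0.0416), and its call too was lost with any array left out (adjusted p = 0.1 to 0.182). The levels of the glycolytic enzymes Ldha and Tpi1 were 11.67 and 10.82 at day 3 and 10.68 and 9.95 at day 18 (adjusted p = 0.17 and 0.0769).

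Fluid cells at days 7 and 12 were on arrays of their own. They are given as levels, with no test, since a comparison with day 3 would use the same day 3 arrays again. Lum had means of 9.78 at day 7 and 10.38 at day 12, and Col5a2 had 10.42 and 10.84. Mmp3 had 8.91 and 9.33. For these genes the day 7 mean was already near that of day 18, at 10.26, 10.61 and 9.14. Saa3 had 9.51 and 10.11 and Hp had 11.70 and 12.08, both between the day 3 and day 18 means. Chil3 had 8.27 and 8.12, Ccl2 had 9.0 and 9.89, and H2-Ab1 had 9.03 and 9.10.

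Whole ankle and blood leukocytes were profiled on the same days, so the change in fluid cells could be set against the change in each. The preparation of RNA differs between tissues and cannot be told apart from the tissue. In whole ankle 30 genes rose and 15 fell between days 3 and 18. In blood 0 of 8251 genes passed in limma, with 151 at an unadjusted p under 0.05, and day 18 has 2 blood arrays. The fluid change differed from the ankle change for 97 genes (1.18%), of which 72 (0.873%) were more positive in fluid and 25 (0.303%) more negative. It differed from the blood change for 177 genes (2.15%), of which 128 (1.55%) were more positive in fluid and 49 (0.594%) more negative.

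Of the 23 fibroblast genes, 9 had a more positive change in fluid than in ankle and 12 than in blood, and 0 had a more negative one. The summed intensity of the list was 32613 to 40039 in ankle at day 3 and 43223 to 43764 at day 18, above every fluid array, and 2066 to 2406 in blood at day 3. Dcn was at 12.82 and 12.67 in ankle on average and at 4.34 and 4.24 in blood, and its change in fluid exceeded that in ankle by 2.73 ± 0.47 (adjusted p = 0.00142). Gas1 exceeded its ankle change by 2.87 ± 0.47 (adjusted p = 0.000774). For Lum and Mmp3 the difference from ankle did not pass (2.61, adjusted p = 0.121, and 1.52, adjusted p = 0.164), and Mmp3 rose in ankle as well, by 2.02 ± 0.31.

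**Figure D4:**
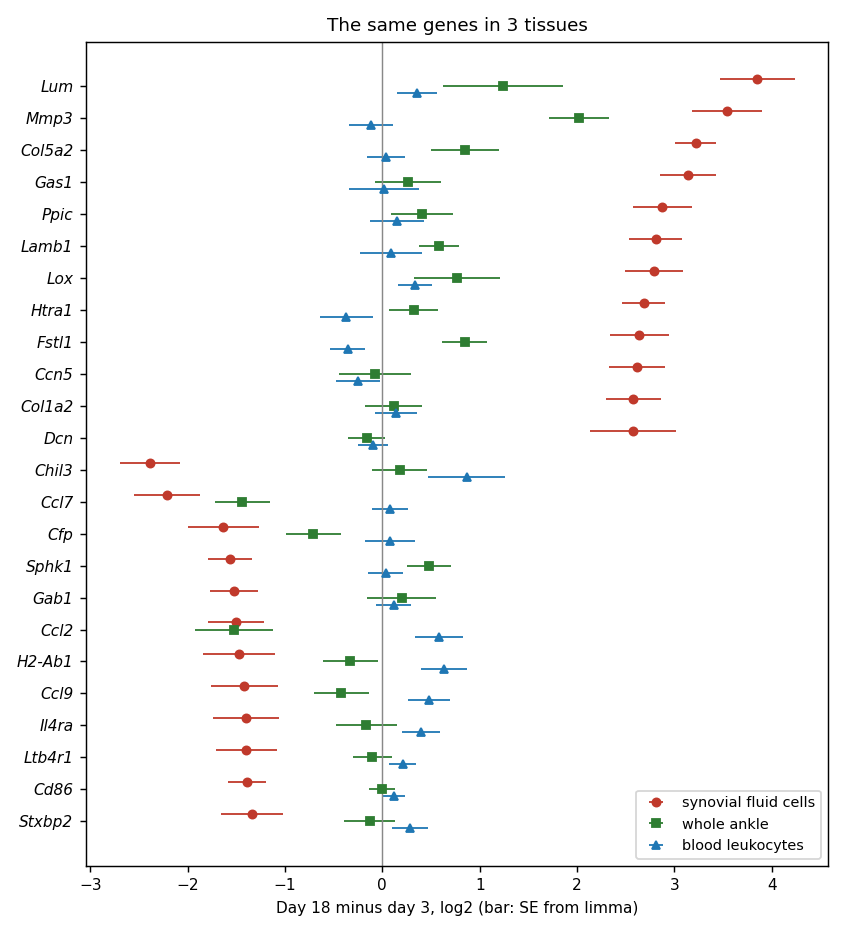
Log2 change from day 3 to day 18 in synovial fluid cells, whole ankle and blood leukocytes for the 12 largest rises and 12 largest falls in fluid by the naming rule, with the standard error from limma as bars. Since the genes were chosen for their fluid change, the fluid points lie far from 0 by choice. Ankle points on the same side as in fluid include those of Mmp3 (2.02), Ccl7 (-1.44) and Ccl2 (-1.52), and smaller ones such as those of Lum and Col5a2.

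Of the 12 falls of the naming rule, Chil3, Sphk1 and Cd86 had a change in fluid that differed from that in both other tissues. The mean of Chil3 was 6.81 and 6.99 in ankle and 7.62 and 8.49 in blood, and its change in fluid was lower by 2.57 ± 0.43 than in ankle (adjusted p = 0.00106) and by 3.25 ± 0.53 than in blood (adjusted p = 0.000437). For Sphk1 it was lower by 2.04 than in ankle (adjusted p = 0.000701) and by 1.6 than in blood (adjusted p = 0.00182). For Cd86 the change in fluid was lower by 1.39 than in ankle (adjusted p = 0.000903), where both means were under the negative control level. Ccl2 had a difference of -1.52 in ankle that did not pass (adjusted p = 0.155), and its distance from the fluid change was 0.01 (SE 0.53, adjusted p = 0.997). For class II genes the blood comparison passed for 7 of 14, all more negative in fluid, and the ankle comparison passed for 0 of 14. The blood difference held a higher level in blood as well as a lower one in fluid. The mean log2 level of the list was 8.51 at day 3 (3 arrays) and 8.88 at day 18 (2 arrays) in blood, and 8.47 and 7.84 in fluid.

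For S100a8 and S100a9 the change in fluid was the smaller one. S100a8 had a mean of 8.07 in ankle at day 3 and 10.04 at day 18, a rise of 1.97 ± 0.29, and its change in fluid was lower by 1.63 ± 0.37 (adjusted p = 0.0205). For S100a9 the fluid change was lower by 1.78 ± 0.43 (adjusted p = 0.0338). These differences were called in 8 and in 3 of the 12 fits with a fluid or ankle array left out, with adjusted p-values up to 0.0667 and 0.137. Against blood, the fluid change of S100a8 differed by -0.30 (adjusted p = 0.911).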

How the data were processed

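Gene expression was measured on 49 arrays, of which 13 held synovial fluid cells, 4 at day 7 and 3 at each of days 3, 12 and 18. The authors deposited 1 linear intensity per probe set and array. The submitters' processing notes name RMA (background correction, quantile normalization and probe summary). No version of RMA was given in those sources. Quantile normalization gives all arrays nearly 1 distribution, so a shift of the whole transcriptome could not be seen. Fluid array medians were 57.7 to 62.7, and the number of arrays limits the precision.

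Values were put on the log2 scale. Of 12488 probe sets, 10833 had 1 gene symbol in the platform annotation, 396 had several and 1259 had none or were controls. Each of 8251 genes was represented by 1 probe set, the one brightest on average across all 49 arrays, and 2073 genes had several. Gene IDs were checked against RefSeq genes of GRCm38.p6, where 16 probe sets had no match. Lists were described by counts and medians.

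The model (limma 3.58.1 with R 4.3.3, lmFit followed by trended eBayes) took the 13 fluid arrays and gave each day its own mean, with two-sided p-values adjusted by Benjamini-Hochberg over the 8251 genes at a threshold of 0.05. The changes in fluid and in ankle or blood were compared in 1 fit of both tissues. The fit was also run on simulated arrays with known changes. Their noise was independent between arrays, with no differences in preparation or RNA integrity, so that run cannot speak for such differences. Named genes were the 12 largest rises and 12 largest falls among called genes without overlap and with the higher mean above 6.85, Cxcr2 and its ligands, of each described list at most the 4 genes lowest in p, markers by level, and up to 6 genes per difference between tissues. Gja1, Thy1, Ctss, Arg1, Ldha and other list members outside this rule were chosen after their values were seen. The members, lists and tests were chosen with earlier results of these data known. Alternatives covered single arrays, preparation, normalization, filters, probe set choice and the test.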

Additional observations from a re-analysis of the deposited data

Results flagged for a closer look

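At day 7 of the fluid time course, 1 of 4 arrays stood apart from the others for Fstl1, at a log2 intensity of 9.0, and 1 of 4 for S100a8, at 12.56. The limit used, Dixon's 95% critical value, is one that about 1 group in 20 passes by chance. These arrays are in neither day mean compared, but they enter the spread estimated over the 13 fluid arrays.

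The change from day 3 to day 18 differed between fluid and ankle for 97 genes and between fluid and blood for 177 genes. Against ankle, the fluid change of Cp, the copper oxidase ceruloplasmin, was higher by 3.79 ± 0.59. Its ankle mean was 8.95 at day 3 and 7.38 at day 18. The fluid change of Scd1, a fatty acid desaturase, was higher by 3.19, that of Cpe, a hormone-processing carboxypeptidase, by 3.13, that of Gas1 by 2.87 and that of Dcn by 2.73. C1qtnf3, a secreted collagen-domain protein, was lower in its fluid change by 3.76 (value -3.76), since it was at 3.34 and 3.72 in fluid, under the negative control level, and at 4.24 and 8.38 in ankle. In fluid, Scd1 was at 7.21 at day 3 and 9.72 at day 18, while its 2 other probe sets differed by 2.25 and 0.04. Each of these 6 differences from ankle was called in all 12 fits with a fluid or ankle array left out.

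Against blood, the fluid change was higher by 3.66 for Mmp3, 3.49 for Lum, 3.18 for Col5a2, 3.12 for Gas1 and 3.05 for Htra1. It was lower for Chil3 (difference -3.25), whose blood mean was 7.62 at day 3 and 8.49 at day 18. Each of these was called in all 11 fits with a fluid or blood array left out. Mmp3, Lum, Col5a2, Gas1 and Htra1 all had blood means under the negative control level on both days.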

How the results depend on the processing

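The direction held in every alternative for the 57 named results that were called, over 1188 values, and 128 of these values missed the threshold. A call was kept in all alternatives run for 37 of the 57. The 263 genes called (188 higher, 75 lower) numbered 136 to 222 (120 to 167 higher, 16 to 55 lower) with 1 array left out, the fewest without day 18 replicate 1. They were 164 (21 lower) with the beta-actin covariate and 133 (114 higher, 19 lower) without both arrays of another preparation, an alternative chosen after seeing the data, as was leaving out ankle or blood arrays. All 49 arrays in 1 fit gave 506 (252 lower), the 6 arrays alone gave 135 lower, and array weights gave 2752 (1305 higher, 1447 lower), with day 3 replicate 2 at a weight of 5.75. Same-numbered replicates of days 3 and 18 deviated from their day means with correlations of -0.12, 0.22 and -0.21. For the other pairs the correlations were -0.09 to 0.23, highest for day 3 replicate 1 with day 18 replicate 3. Whether the numbers pair the samples cannot be settled from so few values. A replicate block gave 408 (169 lower). The 97 differences from ankle numbered 51 to 93 with 1 array left out, 207 with the replicate block and 158 with all 49 arrays. The fewest were without fluid day 18 replicate 1 or ankle day 18 replicate 3. Without ankle day 3 replicate 2 there were 55, and without fluid day 3 replicate 2 there were 60. The 177 differences from blood numbered 86 to 192, with 86 without blood day 18 replicate 2. Cxcr2 turned to -0.036 with the dissected arrays only and without both arrays of another preparation. Cxcl2 ranged from -0.17 to 0.48 with 1 array left out, lowest without day 3 replicate 1, turned to -0.17 with preparation as a block, and to -0.23 with the dissected arrays only and without both arrays of another preparation. S100a9 turned to -0.018 with array weights. The cause was not tested. With 3 arrays a day and 90 called genes under the negative control level on both days, small changes and dim genes are at the limit of these arrays.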

Other observations

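Further genes of mesenchymal cells and of leukocytes, chosen after their values were seen, had differences that passed the test. Ctsk, the cathepsin that degrades collagen in osteoclasts and synovial fibroblasts, was at 8.98, 9.73 and 9.22 at day 3 and at 11.10, 11.33 and 11.29 at day 18, 3.80-fold higher (adjusted p = 0.00427 in limma). Its adjusted p was 0.0713 without the 2 arrays of another preparation. Osmr, the receptor chain for oncostatin M, rose by 2.09 ± 0.27 from a mean under the negative control level, and Tgfb2, a growth factor of the TGF-beta family, rose by 1.34 ± 0.23 between means under that level. Itgb7, an integrin chain of lymphocytes and mast cells, was at 9.31, 8.98 and 9.01 at day 3 and at 7.73, 8.03 and 8.14 at day 18, 2.19-fold lower (adjusted p = 0.00174). Il7r, the interleukin 7 receptor, was 2.36-fold lower (adjusted p = 0.0187), and its adjusted p was 0.0505 without day 3 replicate 3, 0.11 without day 18 replicate 1 and 0.0746 without day 18 replicate 2.

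The counts in the next lists stand beside shares over all genes of 2.28% for rises and 0.909% for falls. Of 20 interferon response genes, Ifit1 rose, by 1.71 ± 0.28, and 0 fell. Of 22 proliferation genes, Ccnb2 and Stmn1 rose, by 0.70 and 0.87, and Ccnb2 kept its call in 0 of the 6 fits with an array left out (adjusted p = 0.0633 to 0.228). Stmn1 was called without day 3 replicate 2 or day 18 replicate 1, with an adjusted p of 0.0615 to 0.112 in the other 4 fits. Of 14 genes for the engulfment of dying cells, Axl and Mfge8 rose, by 0.70 and 0.72, and single arrays left out gave adjusted p-values up to 0.137 and 0.111. In the lists of 28 respiratory chain, 25 immediate early and 13 circadian clock genes, 0 passed in either direction in limma, with 1, 6 and 4 at an unadjusted p under 0.05. The immediate early list, which holds the AP-1 genes Fos and Jun, had 21 differences below 0 and 4 above, with a median of -0.28.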
